A study of Ovis aries with 2 samples.

Results

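CAV1, CAV2 and CAVIN2 are 3 genes of the caveolar coat, and they were taken from both count tables by an exact match of the gene symbol. Each symbol matched 1 row, so the description rests on 3 of the 21890 genes listed: CAV1 (ENSOARG00020000956), CAV2 (ENSOARG00020000978) and CAVIN2 (ENSOARG00020007809). Each was followed in endothelial, smooth muscle and fibroblast cells of a sheep vascular graft and of a native sheep artery. Which genome build the counts rest on is not given in the sources used here, so no coordinates are printed. In the RefSeq annotation of the assembly ARS-UI_Ramb_v3.0, CAV1 and CAV2 are neighbours on 1 chromosome, and CAVIN2 lies between NABP1 and TMEFF2.

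Caveolae are small flask-shaped pits of the plasma membrane that are abundant in endothelial and smooth muscle cells. Caveolins sit in the membrane and cavins coat it from the cytosol. CAV1 encodes caveolin 1, which is needed to form caveolae in both cell types. CAV2 encodes caveolin 2, which assembles with caveolin 1 and depends on it to reach the cell surface. CAVIN2 encodes cavin 2, also called SDPR, a cavin that binds the obligate coat protein cavin 1 and, in work on cultured cells, bends membranes. In mice, loss of cavin 2 removes caveolae from endothelium of some organs and not of others. Endothelial caveolae are known as sites where nitric oxide synthase is held and where membrane stretch and flow are buffered.

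Single cells were captured in droplets and their transcripts counted as unique molecular identifiers (UMIs, 1 per captured RNA molecule). There was 1 graft library, titled H2R5-ATEV, and 1 native library from the carotid artery, both taken from sheep 1 to 2 years old and explanted at 12 weeks after implantation. The title of the series calls such grafts cell-free. The native sample is titled as an aorta, but its other labels all give the carotid artery, and native artery is the name used below. The labels give neither the number of animals nor a genotype or strain. Enzymes were filled into the clamped vessel, which exposed the luminal side most. Red blood cells were lysed before capture. With 1 library of each kind there is no replicate check, no test was made, and every interval below is a 95% interval that covers counting error only.

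The graft library held 1229 barcodes and 36238351 UMIs, and the native library 11371 barcodes and 43183715 UMIs. After filtering, 1074 graft cells with a median of 20832 UMIs and 10080 native cells with a median of 1495.5 UMIs remained. The libraries shared 7 barcode sequences, 4 of them among the kept cells. In the endothelial class these covered 2 graft cells with 24 CAV1, 8 CAV2 and 0 CAVIN2 UMIs, and 3 native cells with 3, 2 and 4 UMIs, too few to move a level below. Cells were clustered without the 3 genes, and clusters were named from marker lists, so that "endothelial" stands for cells with endothelial markers. The endothelial class held 208 graft and 4989 native cells, the smooth muscle class 200 graft and 142 native cells, and the fibroblast class 28 graft and 1774 native cells. Unnamed clusters held 21.9% of graft and 7.08% of native cells. All 13 endothelial markers with a row were detected in the endothelial class of both libraries, summing to 5362 UMIs per 1000000 of the class (CPM) in graft and 4908 CPM in native endothelial cells. For lymphatic, pericyte, adipocyte, neutrophil, erythroid and Schwann cell markers the sum in this class was at most 10.8 CPM in each library. Smooth muscle markers summed to 734 CPM in graft and 402 CPM in native endothelial cells, macrophage markers to 99.2 CPM in graft and 232 CPM in native endothelial cells, and T or NK markers to 10.3 CPM in graft and 38.8 CPM in native endothelial cells. Fibroblast markers summed to 3926 CPM in graft and 2992 CPM in native endothelial cells, of which CLEC3B made up 3059 CPM and 2212 CPM. KLRB1, among the T or NK markers, was at 0 in endothelial cells of both libraries. The part of other cell types in the levels below was not tested.

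All 3 caveolar genes stood lower in graft endothelial cells than in native ones, CAV1 least and CAVIN2 most. CAV1 was at 223 CPM (214 to 233) in graft endothelial cells, from 2203 UMIs, and at 512 CPM (502 to 523) in native endothelial cells, from 8990 UMIs. It was 2.30-fold lower in the graft (2.19 to 2.41). CAV2 was at 91.8 CPM (85.9 to 98.0) in graft and 417 CPM (408 to 427) in native endothelial cells, from 907 and 7322 UMIs. It was 4.55-fold lower in the graft (4.24 to 4.88). CAVIN2 was at 25.01 CPM (22.0 to 28.3) in graft and 517 CPM (506 to 528) in native endothelial cells, from 247 and 9070 UMIs. It was 20.7-fold lower in the graft (18.2 to 23.6). None of these pairs of counting intervals overlapped. Such intervals are narrow with 9877590 graft and 17543062 native UMIs in the class. The share of all genes without overlap was not counted, so the lack of overlap does not set these 3 genes apart.

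With 5 CPM added to both sides, the log2 ratios of graft over native endothelial cells were -1.18 for CAV1, -2.12 for CAV2 and -4.12 for CAVIN2. All 3 thus lay at least 2-fold lower, while 6.11% of the 15034 genes tested in this class did so and 7.18% lay at least 2-fold higher. The median log2 ratio over all genes tested was -0.03. The 3 genes were chosen with earlier results of these data known. CAVIN2 was by then already known as 1 of the genes lowest in graft endothelial cells. The place of the 3 genes there is therefore no independent support.

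**Figure D1:**
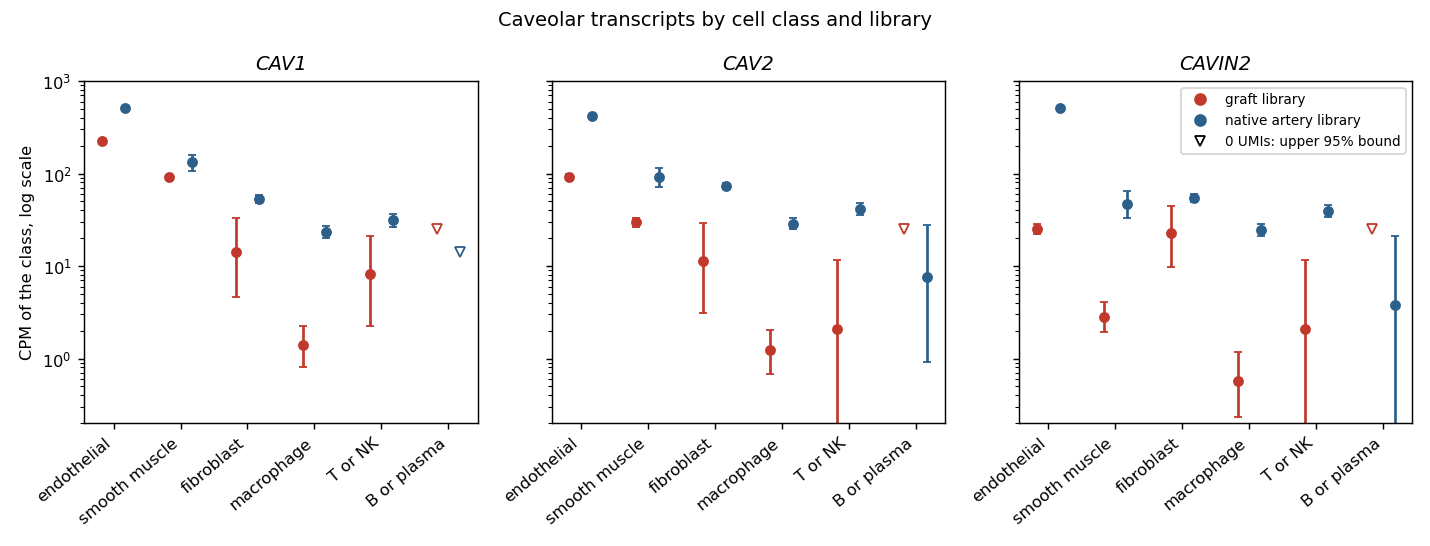
Level of each caveolar gene by cell class in the graft library (red) and the native artery library (blue), in CPM of the class on a log axis. Points are class sums, bars are 95% Poisson counting intervals, a bar that meets the lower edge runs on below it, and open triangles are upper bounds where 0 UMIs were counted. In endothelial cells the graft points lie at 223, 91.8 and 25.01 CPM, below native points of 512, 417 and 517 CPM.

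The spread of UMIs over cells was looked at as well, where the share of cells at 0 depends on the level itself. Cells of at least 5000 UMIs were thinned to 5000, which left 183 graft and 1194 native endothelial cells at equal depth. CAV1 was at a median of 1 UMI in graft cells (lowest 0, highest 5) and 2 UMIs in native cells (lowest 0, highest 15). No CAV1 UMI was drawn in 41.0% of graft and 11.4% of native endothelial cells. CAV2 was at a median of 0 UMIs in graft cells (highest 4) and 2 UMIs in native cells (highest 12), with 66.7% of graft and 19.6% of native cells at 0. CAVIN2 was at a median of 0 UMIs in graft cells (highest 4) and 2 UMIs in native cells (highest 20), with 86.3% of graft and 15.3% of native cells at 0. The 2 libraries overlapped per cell for every gene, and for CAVIN2 they differed most in the share of cells at 0.

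Without thinning, 67 of 208 graft endothelial cells carried a CAVIN2 UMI, against 173 with CAV1 and 160 with CAV2, although the median graft endothelial cell had 33020.5 UMIs. The 21 graft endothelial cells with the most CAVIN2 UMIs held 68.8% of its 247 UMIs, a share that also depends on how few UMIs there are. For CAV1 the top 21 cells held 45.4%, with 147 UMIs in 1 cell, and for CAV2 they held 34.2%. In native endothelial cells the 499 top cells held 54.1% of CAV1, 50.5% of CAV2 and 54.0% of CAVIN2 UMIs, so the 3 genes were alike there in this respect.

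**Figure D2:**
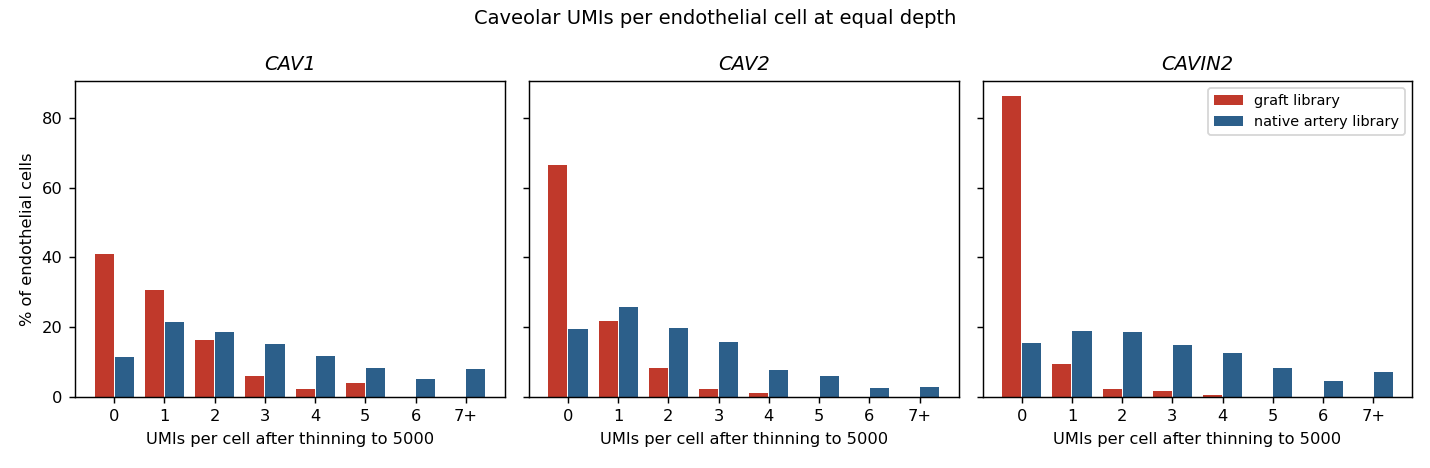
UMIs per endothelial cell for each gene after every cell was thinned to 5000 UMIs, as the percentage of the 183 graft cells (red) and of the 1194 native cells (blue). The share of cells at 0 UMIs for CAVIN2 is 86.3% in the graft and 15.3% in the native artery, and bars at 7+ gather all higher counts.

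Graft and native endothelial cells fell mostly into different clusters, and such a cluster can reflect the library as well as a cell type. Cluster 0 held 175 of the 208 graft endothelial cells and 6 native ones, and it was led by NPPC, which encodes C-type natriuretic peptide. Clusters 6, 10, 15 and 18 held 1077, 921, 1931 and 1040 native cells, with median depths of 8031, 3745, 707 and 1846 UMIs. CAVIN2 and CAV2 were among the 10 leading genes of cluster 6, so their levels there describe that cluster and support nothing.

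Cluster 10 was the 1 endothelial cluster with at least 20 cells of both libraries, and the gap between libraries was smaller in it. Its 29 graft cells gave 151 CPM of CAVIN2 (102 to 214) from 31 UMIs, and its 921 native cells 269 CPM (253 to 285), which is 1.78-fold lower in the graft (1.25 to 2.64). CAV1 was at 253 CPM in these graft cells and 438 CPM in these native cells, 1.73-fold lower in the graft (1.32 to 2.33). CAV2 was at 77.7 CPM in these graft cells and 232 CPM in these native cells, 2.98-fold lower in the graft (1.82 to 5.23). Cluster 10 had the least CAVIN2 of the 4 large native clusters, while among graft cells it had more than cluster 0, which was at 21.8 CPM. Cluster 10, with 29 of the 208 graft endothelial cells, held 12.6% of the CAVIN2 UMIs of the graft class, but 2.36% of its CAV1 and 1.76% of its CAV2 UMIs. These 29 cells were shallow, at a median of 5948 UMIs against 42360 UMIs in graft cells of cluster 0. A share of UMIs is therefore not comparable with their share of cells. By CPM, graft cells of cluster 0 were at 223 of CAV1 and 92.4 of CAV2, with intervals that overlapped those of cluster 10.

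**Figure D3:**
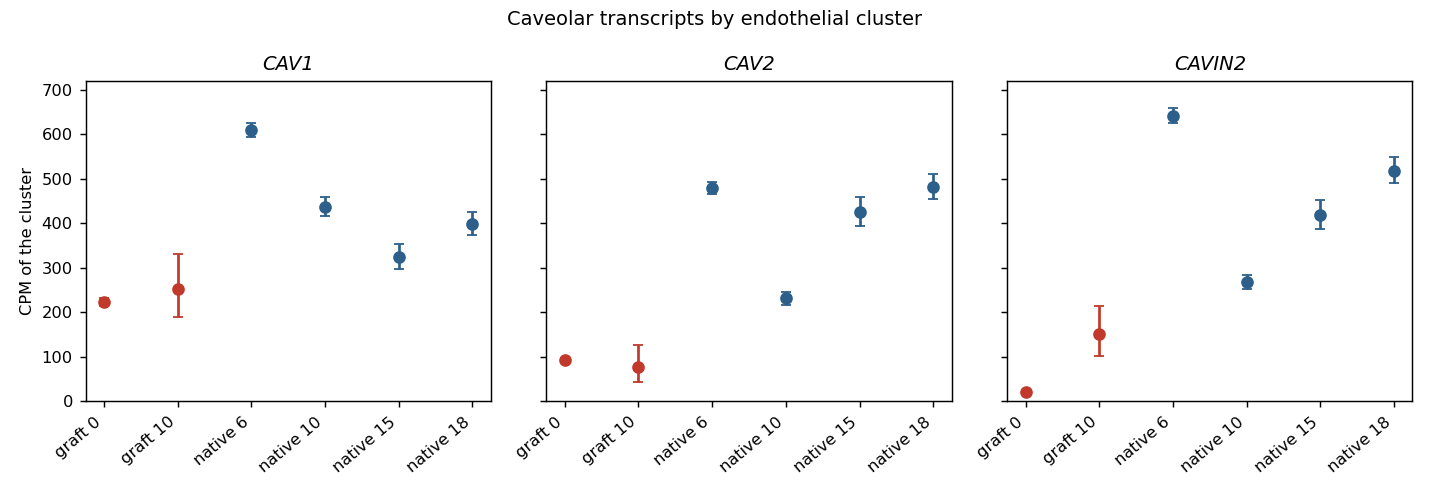
Level of each gene in the endothelial clusters with at least 20 cells of a library, in CPM of the cluster with 95% Poisson counting intervals, graft cells in red and native cells in blue, numbered by cluster. CAVIN2 is at 21.8 CPM in graft cluster 0 and 151 CPM in graft cluster 10, against 269 CPM in native cluster 10 and 642 CPM in native cluster 6.

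The fold between libraries also differed between bins of depth, mainly for CAVIN2. Depth went with cluster in the graft, at medians of 5948 UMIs in cluster 10 and 42360 UMIs in cluster 0. Depth and cluster therefore cannot be told apart here. In cells of 5000 to 20000 UMIs (40 graft and 1167 native), CAVIN2 was at 118 CPM in graft and 579.9 CPM in native endothelial cells, 4.93-fold lower in the graft (3.79 to 6.53). In cells of at least 20000 UMIs (143 graft and 27 native) it was at 20.0 CPM in graft and 503 CPM in native cells, 25.1-fold lower (21.0 to 30.1). CAV1 was 2.76-fold lower in the graft in the shallower of these bins and 2.17-fold lower in the deeper one. CAV2 was 3.13-fold lower in the graft in the shallower bin and 4.61-fold lower in the deeper one. All 3 genes were lower in the graft in both bins, whose bounds were chosen after the data had been seen.

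The other coat genes of endothelial cells did not share one direction. CAVIN1, the cavin without which no caveola forms, was at 469.8 CPM in graft and 457 CPM in native endothelial cells, a ratio of 1.03 (0.991 to 1.06). CAVIN3, a cavin that binds cavin 1, was 1.93-fold higher in the graft (1.81 to 2.05), at 213 CPM in graft and 111 CPM in native cells. EHD2, an ATPase that gathers at the neck of caveolae and holds them at the surface, was 2.27-fold higher (2.15 to 2.40), at 297 CPM in graft and 131 CPM in native cells. PACSIN2, a membrane-curving protein of caveolae, was 1.76-fold higher (1.67 to 1.85). EHD4, a relative of EHD2, was at 545 CPM in graft and 865 CPM in native cells, 1.59-fold lower in the graft.

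EHD1 and the scission protein gene DNM2 had graft over native ratios of 1.24 and 1.14 in endothelial cells. PACSIN3 rested on 3 graft and 20 native UMIs. CAV3, the muscle caveolin, had 0 UMIs in the endothelial cells of either library, and CAVIN4, the muscle cavin, had 0 graft and 4 native UMIs. Of the 11 coat and accessory genes with at least 10 UMIs in this class, 3 were at least 2-fold lower in the graft, and these were CAV1, CAV2 and CAVIN2 themselves. EHD2 was the 1 gene at least 2-fold higher. The list had a median log2 ratio of 0.04, beside -0.03 over all genes tested. Of all genes tested in this class, 6.11% were at least 2-fold lower and 7.18% at least 2-fold higher.

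The balance among coat transcripts of endothelial cells therefore differed between the libraries. For each CAVIN1 UMI there were 0.0532 CAVIN2 UMIs (0.0466 to 0.0605) in graft and 1.13 (1.10 to 1.17) in native endothelial cells. For each CAV1 UMI there were 0.412 CAV2 UMIs (0.381 to 0.445) in graft and 0.814 (0.790 to 0.840) in native endothelial cells. These ratios compare 1 pair of genes between libraries and do not rank genes by level, since the values are not per length. At 1000 UMIs per cell, CAV1 and CAV2 were found together in 2.01% of graft and 11.6% of native endothelial cells. The product of their single shares is 1.41% in graft and 10.9% in native cells.

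**Figure D4:**
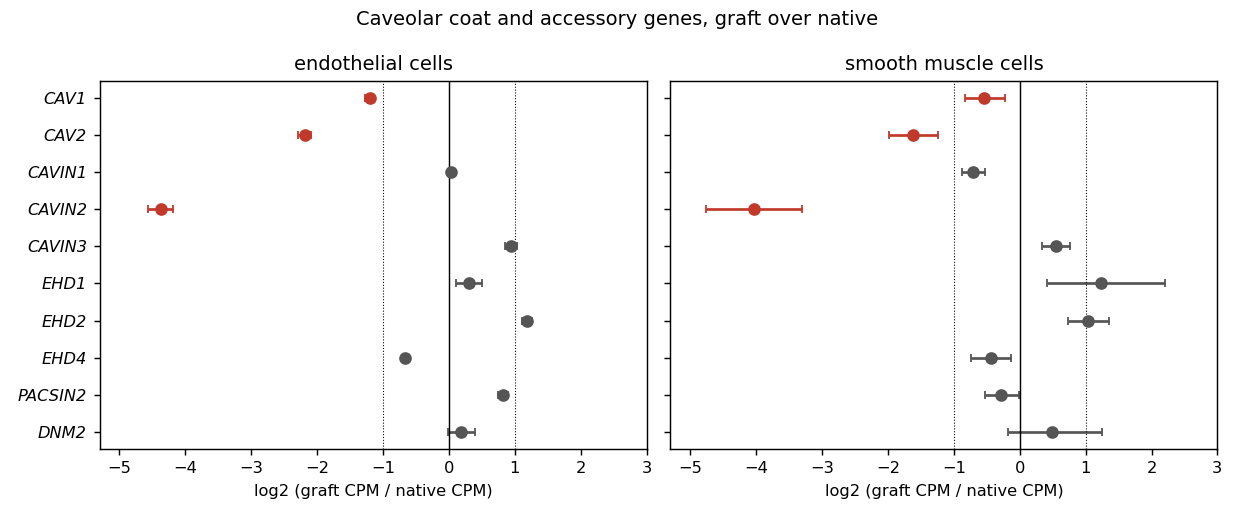
Log2 ratio of graft over native CPM for the caveolar coat and accessory genes other than CAV3, CAVIN4 and PACSIN3, which had few UMIs, in endothelial cells and in smooth muscle cells, with 95% exact binomial counting intervals and dotted lines at 2-fold. CAV1, CAV2 and CAVIN2 (red) lie left of 0 in both classes, while CAVIN1 lies at 0 in endothelial cells and the EHD2 point lies right of 0 in both.

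Partners that have been described at endothelial caveolae were not lower as a group. Of 16 such genes with at least 10 UMIs, 3 lay past 2-fold higher in graft endothelial cells and 2 past 2-fold lower. Their median log2 ratio was 0.26, beside -0.03 over all genes tested in this class. Of all genes tested, 7.18% were past 2-fold higher and 6.11% past 2-fold lower. NOS3, the endothelial nitric oxide synthase that caveolin 1 binds, was at 782 CPM in graft and 499 CPM in native cells, 1.57-fold higher in the graft (1.52 to 1.62). ENG, a coreceptor of the transforming growth factor beta family, was at 638 CPM in graft and 159 CPM in native cells, 4.03-fold higher (3.85 to 4.21). TGFBR1 and KDR, the receptor kinases for transforming growth factor beta and for vascular endothelial growth factor, were the other two at least 2-fold higher. INSR, the insulin receptor, and TRPC1, a cation channel, were the 2 at least 2-fold lower. HSP90AA1, a chaperone of nitric oxide synthase, and BMPR2, a receptor of bone morphogenetic proteins, had ratios of 0.842 and 0.762.

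Genes described at smooth muscle caveolae were also looked up in endothelial cells. Of 14 with at least 10 UMIs, ITPR1, a calcium release channel, was past 2-fold higher in the graft, and ATP2B1 and TRPC1 were past 2-fold lower. Their median log2 ratio was -0.24. The most abundant of them were SLC8A1, RHOA, ITPR1 and ROCK2, with graft over native ratios of 1.09, 0.744, 3.65 and 0.855. Among the coats of other uptake routes (clathrin, its adaptor AP2 and flotillins), AP2S1 alone of 9 genes was past 2-fold higher in graft endothelial cells and 0 were past 2-fold lower. CLTC, the clathrin heavy chain, had a ratio of 1.41, and CLTA, CLTB and AP2B1 had ratios of 0.948, 1.21 and 0.984. The median log2 ratio of these 9 genes was 0.26. Beside both lists, all genes tested in this class had a median of -0.03, with 7.18% past 2-fold higher and 6.11% past 2-fold lower.

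In smooth muscle cells CAV2 and CAVIN2 were lower in the graft by an amount that depended on the cells counted, CAV1 had no settled direction, and CAVIN2 rested on few UMIs in both libraries. Cluster 1 held 197 of the 200 graft cells and 12 native cells, and cluster 20 held 3 graft cells and 130 of the 142 native cells. Each ratio in this class therefore sets mostly 1 cluster against another. CAV1 was at 91.0 CPM (85.4 to 96.8) in graft and 132 CPM (108 to 160) in native smooth muscle cells, from 992 and 105 UMIs, which is 1.45-fold lower in the graft (1.17 to 1.77). CAV2 was at 29.8 CPM (26.7 to 33.2) in graft and 91.6 CPM (71.8 to 115) in native smooth muscle cells, from 325 and 73 UMIs. It was 3.07-fold lower in the graft (2.35 to 3.97). CAVIN2 was at 2.84 CPM (1.93 to 4.04) in graft and 46.5 CPM (32.7 to 64.0) in native smooth muscle cells, from 31 and 37 UMIs. Its ratio of 16.3-fold lower in the graft (9.86 to 27.2) rests on 13 native cells, 1 of which held 11 of the 37 UMIs.

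Thinned to 1000 UMIs, 2.80% of native smooth muscle cells had a CAVIN2 UMI, with an interval of 0.582 to 7.98 that covers the 5.85% of native T or NK cells, which should lack the gene. In cells of 5000 to 20000 UMIs it was at 8.13 CPM in graft and 44.2 CPM in native smooth muscle cells, beside 8.34 CPM in native T or NK cells of that depth. That bin held 59.5% of the native CAVIN2 UMIs of the class. The shares at 1000 UMIs do not separate the classes while the CPM of deeper cells do, and the part of free RNA was not tested. In the same bin the 46 graft cells held 43.9 CPM of CAV1 and the 42 native cells 133 CPM, 3.02-fold lower in the graft (1.90 to 4.92). CAV1 was found in 6% of graft and 5.61% of native smooth muscle cells at 1000 UMIs. Its log2 ratio of -0.51 turned positive under 3 alternatives. The ratio was at 0.30 without cells that carried markers of other classes and at 0.62 with CLEC3B set aside from those markers. CAV2 was found in 4% of graft and 9.35% of native smooth muscle cells (4.57 to 16.5), with native T or NK cells at 5.72%. Median depths were 34741.5 UMIs in graft and 2689 UMIs in native smooth muscle cells, and 2035 UMIs in native T or NK cells.

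With 5 CPM added, CAV2 (log2 ratio -1.47) and CAVIN2 (-2.71) were in the lower direction past 2-fold in this class, while 8.26% of the 14265 genes tested there were too and 8.34% were at least 2-fold higher. Without cells that carried markers of other classes, CAV2 was at -0.55 and no longer past 2-fold, and CAVIN2 was at -1.18. With CLEC3B set aside from those markers, CAV2 was at -0.41 and CAVIN2 at -0.996, neither past 2-fold. Scaling by trimmed means moved all log2 ratios of this class up by 0.21, and the calls then numbered 1765 higher and 724 lower, against 1190 and 1179. CAV1 was at -0.30, CAV2 at -1.26 and CAVIN2 at -2.50 under that scaling. Macrophage markers summed to 1457 CPM in graft and 175 CPM in native smooth muscle cells, with 9 and 8 of 9 markers detected, and MRC1 at 0 in native cells. At 1000 UMIs, 15.5% of graft and 0% of native smooth muscle cells had at least 2 UMIs of them. Pericyte markers summed to 1004 CPM in graft and 1021 CPM in native smooth muscle cells. Endothelial markers summed to 445 CPM in graft and 490 CPM in native smooth muscle cells, beside 5362 and 4908 CPM in the endothelial class. The part of macrophage and endothelial transcripts in these levels, that of CAVIN2 included, was not tested.

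Among the other coat genes of smooth muscle cells, EHD1 and EHD2 were at least 2-fold higher in the graft, with ratios of 2.36 (1.34 to 4.61) and 2.05 (1.66 to 2.54). CAVIN1 was at 238 CPM in graft and 389 CPM in native cells, 1.63-fold lower in the graft (1.45 to 1.84). CAVIN3 was at 337 CPM in graft and 231 CPM in native cells, 1.46-fold higher (1.26 to 1.70). Ratios of EHD4, PACSIN2, PACSIN3 and DNM2 lay between 0.737 and 1.41. CAV3 had 11 graft and 4 native UMIs, and CAVIN4 15 graft and 0 native UMIs. Of 13 genes of the list, 2 passed 2-fold upwards and 2 downwards. The median log2 ratio was -0.27 beside -0.01 over all genes tested. Of the 14265 genes tested in this class, 8.34% passed 2-fold upwards and 8.26% downwards.

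Partners described at smooth muscle caveolae were split as well. Of 14 such genes in smooth muscle cells, EDNRA, the endothelin receptor, and ATP2B1, a plasma membrane calcium pump, were at least 2-fold higher in the graft. SLC8A1, the sodium-calcium exchanger, DMD, which encodes dystrophin, and SGCB, a sarcoglycan, were at least 2-fold lower. DMD was at 266 CPM in graft and 1586 CPM in native smooth muscle cells, 5.97-fold lower in the graft (5.58 to 6.38). SLC8A1 was at 503 CPM in graft and 1276 CPM in native cells, 2.54-fold lower. SGCD, another sarcoglycan, was at 337 CPM in graft and 225 CPM in native cells, and ROCK2, a kinase of contraction, at 319.7 CPM in graft and 360.3 CPM in native cells. The median log2 ratio of these 14 genes was -0.25, beside -0.01 over all genes tested in smooth muscle cells. Among all genes tested there, 8.34% were past 2-fold in the upward direction and 8.26% in the downward one.

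Of the endothelial partner list, 3 of 16 genes were past 2-fold lower in the smooth muscle cells of the graft and 0 were past 2-fold higher. Their median log2 ratio was -0.18. These were NOS3, INSR and PTGIS, the prostacyclin synthase, which was at 57.1 CPM in graft and 280.0 CPM in native smooth muscle cells. HSP90AA1, IGF1R, the receptor of insulin-like growth factor 1, and BMPR2 had ratios of 1.23, 0.969 and 0.761. In the clathrin, AP2 and flotillin list AP2S1 alone of 9 was past 2-fold higher and 0 were past 2-fold lower. CLTC, CLTA, AP2B1 and CLTB had ratios of 1.45, 1.46, 1.08 and 0.812, and the median log2 ratio was 0.40. Beside both lists, all genes tested in smooth muscle cells had a median of -0.01, with 8.34% past 2-fold higher and 8.26% lower.

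In fibroblasts the 28 graft cells gave 5 CAV1, 4 CAV2 and 8 CAVIN2 UMIs in all. These correspond to 14.3 CPM (4.63 to 33.3), 11.4 CPM (3.11 to 29.2) and 22.8 CPM (9.85 to 44.9) in graft fibroblasts. Native fibroblasts were at 53.3 CPM (48.5 to 58.4) of CAV1, 72.9 CPM (67.3 to 78.9) of CAV2 and 54.2 CPM (49.4 to 59.4) of CAVIN2. All 3 genes lay at least 2-fold lower in the graft with 5 CPM added, with log2 ratios of -1.60, -2.25 and -1.09, while 10.2% of the 13839 genes tested in this class did so and 5.25% lay at least 2-fold higher.

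These fibroblast ratios depend on which native barcodes are counted. Cluster 11 held 27 of the 28 graft fibroblasts and 597 native ones with a median of 11112 UMIs, and cluster 17 held 1177 native fibroblasts with a median of 827 UMIs. Within cluster 11, CAV1 was at 14.3 CPM in graft and 22.8 CPM in native cells, CAV2 at 11.4 CPM in graft and 33.9 CPM in native cells, and CAVIN2 at 22.9 CPM in graft and 14.98 CPM in native cells. The interval of the graft over native ratio there included 1 for CAV1 (0.201 to 1.49) and CAVIN2 (0.642 to 3.12), and not for CAV2 (0.0912 to 0.875). A difference in fibroblasts was thus not detectable at this depth for CAV1 and CAVIN2, and CAV2 rests on 4 graft UMIs.

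Of 10 coat and accessory genes with at least 10 UMIs in fibroblasts, 3 were at least 2-fold lower in the graft, again CAV1, CAV2 and CAVIN2, and 0 were higher. CAVIN1 was at 171 CPM in graft and 215 CPM in native fibroblasts, CAVIN3 at 128 CPM in graft and 132 CPM in native fibroblasts, and EHD2 at 74.1 CPM in graft and 84.1 CPM in native fibroblasts. EHD4 had 14 graft UMIs and a ratio of 0.482, and those of EHD1, PACSIN2 and DNM2 lay between 1.06 and 1.24. CAV3, CAVIN4 and PACSIN3 had 0 UMIs in graft fibroblasts and 1, 5 and 4 UMIs in native fibroblasts. The list had a median log2 ratio of -0.25 beside -0.15 over all genes tested. Of all genes tested in this class, 10.2% were at least 2-fold lower and 5.25% at least 2-fold higher.

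The partner lists in fibroblasts rest on few graft UMIs too. Of 16 endothelial partners, NOS3, S1PR1, SLC7A1 and PLVAP were past 2-fold lower in the graft and 0 were past 2-fold higher, with S1PR1 and PLVAP at 0 graft UMIs. Their median log2 ratio was -0.34. The most abundant were HSP90AA1, TGFBR1, BMPR2 and PTGIS, with graft over native ratios of 0.977, 0.663, 1.48 and 1.70. Endothelial markers, PLVAP among them, summed to 79.8 CPM in graft and 438 CPM in native fibroblasts. The part of endothelial transcripts in the levels of NOS3, S1PR1, SLC7A1 and PLVAP here was not tested. Of 14 smooth muscle partners, DMD was past 2-fold higher, and SGCD and AGTR1, the angiotensin receptor, were past 2-fold lower. The median log2 ratio was -0.13, and SLC8A1, RHOA, ROCK2 and ATP2B1 had ratios of 0.567, 0.787, 0.912 and 0.778. Of the 9 clathrin, AP2 and flotillin genes 0 were past 2-fold in either direction. CLTC, CLTA, AP2B1 and AP2S1 had ratios of 1.28, 0.776, 1.15 and 1.67, and the median log2 ratio was -0.33. Beside these lists, all genes tested in fibroblasts had a median of -0.15, with 10.2% past 2-fold lower and 5.25% higher.

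In the native library the level of all 3 genes outside endothelial and smooth muscle cells depended on the depth of the barcode. In native T or NK cells of under 1000 UMIs, CAV1 was at 194 CPM (149 to 248), CAV2 at 282 CPM (227 to 345) and CAVIN2 at 218 CPM (171 to 275). In native T or NK cells of 5000 to 20000 UMIs they were at 3.85, 3.53 and 8.34 CPM. Native macrophages showed the same order of depth bins, with 191, 243 and 224 CPM under 1000 UMIs and 6.93, 9.08 and 10.5 CPM at 5000 to 20000 UMIs. Native fibroblasts were at 224, 294 and 281 CPM under 1000 UMIs and at 22.6, 35.2 and 15.8 CPM at 5000 to 20000 UMIs. Native endothelial cells held 316, 408 and 410 CPM under 1000 UMIs and 586, 441 and 579.9 CPM at 5000 to 20000 UMIs.

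Endothelial markers moved with this. Their sum was 2652 CPM in native T or NK cells, 2066 CPM in native macrophages and 2626 CPM in native fibroblasts of under 1000 UMIs, against 125, 342 and 89.1 CPM in those of 5000 to 20000 UMIs. In endothelial barcodes of under 1000 UMIs it was 3831 CPM. The number of CAV2 UMIs per CAV1 UMI in native barcodes of under 1000 UMIs was 1.45 in T or NK cells (1.05 to 2.03), 1.27 in macrophages (0.919 to 1.77), 1.31 in fibroblasts (1.03 to 1.68) and 1.29 in endothelial cells (1.13 to 1.48). In native endothelial cells of 5000 to 20000 UMIs it was 0.752 (0.724 to 0.781). The part of free RNA in the levels of shallow native barcodes was not tested.

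**Figure D5:**
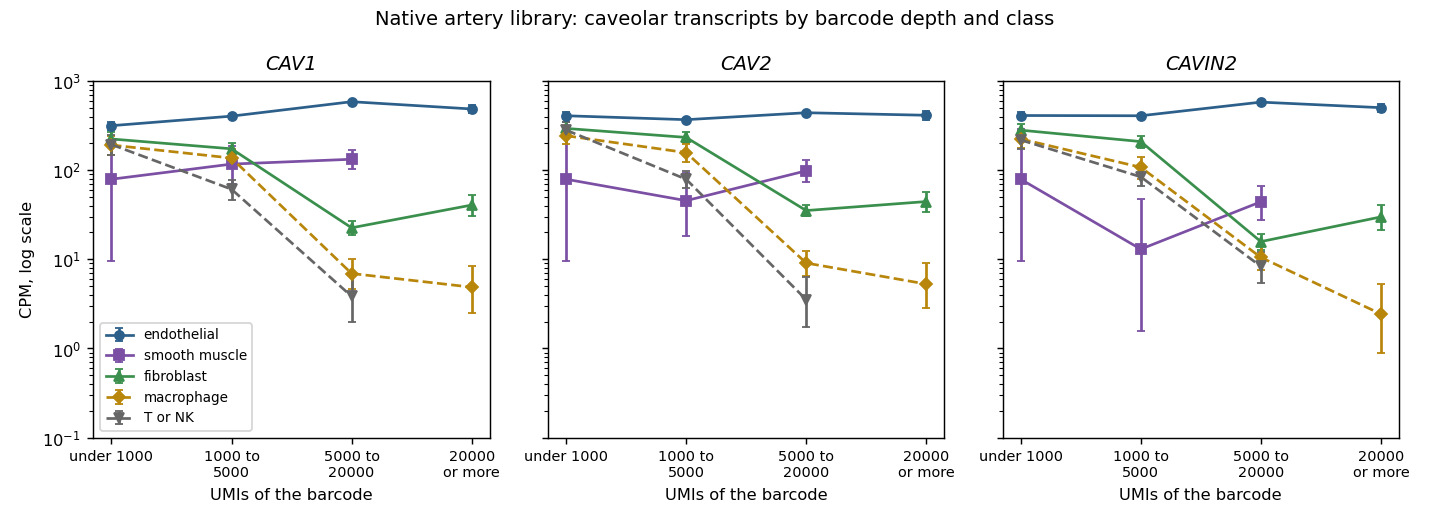
Level of each gene in the native artery library by the UMIs of the barcode (4 bins) and cell class, in CPM on a log axis with 95% Poisson counting intervals, for bins of at least 20 cells. Endothelial cells stay between 316 and 586 CPM, while T or NK cells lie at no more than 8.34 CPM at 5000 to 20000 UMIs.

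Graft macrophages and graft T or NK cells held little of the 3 genes. In unnamed cluster 4, 193 graft cells were at 16.9 CPM of CAV1, 9.31 CPM of CAV2 and 6.77 CPM of CAVIN2. In unnamed cluster 2, 39 graft cells held 2 CAV1, 1 CAV2 and 0 CAVIN2 UMIs. Graft macrophages, at a median of 30473 UMIs, were at 1.39 CPM of CAV1, 1.23 CPM of CAV2 and 0.574 CPM of CAVIN2. Native macrophages were at 23.6, 28.8 and 24.5 CPM. Graft T or NK cells had 4 CAV1, 1 CAV2 and 1 CAVIN2 UMIs, all in 1 of 70 cells for each gene. At 1000 UMIs, CAV1 was found in 20.1% of graft endothelial cells (14.8 to 26.3) and 0% of the 69 graft T or NK cells (0 to 5.21). CAV2 was found in 7.04% of graft endothelial cells (3.90 to 11.5) and 1.45% of graft T or NK cells (0.0367 to 7.81). CAVIN2 was found in 5.03% of graft endothelial cells (2.44 to 9.05) and 0% of graft T or NK cells (0 to 5.21), so at this depth the shares of CAV2 and CAVIN2 in graft endothelial cells were not separated from those of T or NK cells. By summed UMIs they were, at 91.8 against 2.06 CPM for CAV2 (upper bound 11.5) and 25.01 against 2.06 CPM for CAVIN2 (upper bound 11.5).

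In native cells at 1000 UMIs, 33.7% of endothelial cells had CAV1, 32.3% CAV2 and 35.7% CAVIN2, against 4.55%, 5.72% and 5.85% of T or NK cells. Native fibroblasts were at 9.33%, 12.6% and 9.83%. Native smooth muscle cells were at 5.61% (2.09 to 11.8), 9.35% and 2.80%. By CPM, CAV1 stood in the order endothelial, smooth muscle, fibroblast in both libraries, and no neighbouring intervals overlapped. At 1000 UMIs per cell the native share with CAV1 was lower in smooth muscle cells than in fibroblasts (7.61 to 11.3), with overlapping intervals. No order of these classes over all depths is therefore read for the native artery. By CPM, CAV2 stood in the same order in the native artery, at 417, 91.6 and 72.9 CPM, with overlapping intervals for smooth muscle cells and fibroblasts, both by CPM and by share of cells. In the graft it did so too, at 91.8, 29.8 and 11.4 CPM, where the fibroblast interval reached 29.2 CPM and that of smooth muscle cells began at 26.7 CPM. CAVIN2 was highest in endothelial cells of the native artery. Over all depths together, native smooth muscle cells and fibroblasts did not differ in it beyond their intervals. In native cells of 5000 to 20000 UMIs, smooth muscle cells were above fibroblasts without overlap for each gene. CAV1 was at 133 against 22.6 CPM there, CAV2 at 98.4 against 35.2 CPM and CAVIN2 at 44.2 against 15.8 CPM. Below 5000 UMIs the native points of all 3 genes were higher in fibroblasts, so the order depended on depth. In the graft, CAVIN2 was at 25.01 CPM in endothelial cells and 22.8 CPM in fibroblasts, which did not differ beyond their intervals, and at 2.84 CPM in smooth muscle cells.

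Genes with the most similar level pattern were sought over 11 groups of class and library with at least 20 cells, by Pearson's r of log2(CPM + 5) among 5902 genes. The groups share libraries, depth and free RNA, so r is a description. For CAV1 the 5 closest were GATA6, a transcription factor, CRIM1, a transmembrane protein that binds bone morphogenetic proteins, SERTAD4, GASK1B and COL18A1, a basement membrane collagen, with r from 0.980 down to 0.965. For CAV2 they were CTNNAL1, ADIRF, TNFRSF11B, which encodes osteoprotegerin, GJA5, the arterial gap junction protein connexin 40, and MECOM, a transcription factor, with r from 0.966 down to 0.947. For CAVIN2 they were CRISPLD1, SHF, FAM107A, SLC16A9 and PTGS1, which encodes cyclooxygenase 1, with r from 0.953 down to 0.928. No gene was on more than 1 of these lists.

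Among themselves, CAV1 and CAV2 had r of 0.926, CAV2 and CAVIN2 0.897, and CAV1 and CAVIN2 0.748. CAVIN1 had r of 0.880 with CAV1, 0.792 with CAV2 and 0.624 with CAVIN2. CAVIN3 had r of 0.729 with CAV1, 0.547 with CAV2 and 0.314 with CAVIN2, and EHD2 had 0.848, 0.659 and 0.432 with the same 3 genes.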

How the data were processed

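Single-cell libraries of 1 graft and 1 native carotid artery were read as deposited, as filtered matrices of whole-number UMI counts. Per the file headers, Cell Ranger 7.2.0 made them. Seurat 5.0.0, R 4.3.3 and bcl2fastq 2.20.0.422 are listed in the submitters' processing notes. The build is not given in the sources used here. The members, gene lists and tests were chosen with earlier results of these data known.

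Barcodes with under 200 genes or over 20% UMIs from 13 mitochondrial genes were removed (143 graft, 266 native). Scrublet in scanpy 1.11.5 marked 2 graft and 0 native barcodes at its automatic threshold, which is no working call, so the highest scores were removed at 0.8% per 1000 barcodes (12 graft, 1034 native). The libraries were clustered jointly and without integration, by the Leiden method at resolution 1, from 15 neighbours in 30 principal components of 2000 variable genes. None of the 3 genes was among the variable genes. Clusters were named from marker lists: at least 3 markers 2-fold up and at most 50% as many of another class. The 10 leading genes could not hold more markers of another class than of the named one. A cluster far shallower than its library also needed a marker of the named class among them. UMIs were summed per class and library, scaled to 1000000 (CPM), and given with exact Poisson, binomial and Clopper-Pearson intervals. Intervals and the limits from counts of 0 cover counting error only. A gene was tested with at least 10 UMIs in both sums together and called past 2-fold after adding 5 CPM. Named genes were the 3 members, every coat and accessory gene, up to 4 of the most abundant members of each other list, any that passed 2-fold where few did, and the 5 genes closest in pattern. The scripts were tested on simulated data. edgeR 4.0.16 was used for trimmed-mean scaling as an alternative only; other alternatives changed filters, clustering, naming, depth, weighting and the added CPM.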

Additional observations from a re-analysis of the deposited data

Results flagged for a closer look

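Barcodes in unnamed native clusters entered no comparison. In 3 of these clusters caveolar transcripts lay above the level of native T or NK cells of all depths together. The upper bounds of those T or NK cells were 36.6 CPM for CAV1, 47.8 CPM for CAV2 and 46.0 CPM for CAVIN2. Cluster 8, with 472 native and 0 graft cells, closest to the endothelial list but with fewer than 3 of its markers 2-fold up, held 349 CPM of CAV1 (311 to 390), 453 CPM of CAV2 (410.2 to 500.1) and 657 CPM of CAVIN2 (604 to 712). Cluster 19, with 113 native and 2 graft cells, held 354 CPM of CAV1 (259 to 472), 308 CPM of CAV2 (220.0 to 419) and 223 CPM of CAVIN2 (149.5 to 321), at a median of 931 UMIs per native cell. Cluster 21, with 107 native and 1 graft cell, held 102 CPM of CAV2 (70.5 to 144). The T or NK cells were deeper, at a median of 2035 UMIs. Native T or NK cells of under 1000 UMIs held 194 CPM of CAV1 (149 to 248), 282 CPM of CAV2 (227 to 345) and 218 CPM of CAVIN2 (171 to 275). Against these, cluster 19 was higher for CAV1 only, with overlapping intervals for CAV2 and CAVIN2. Native T or NK cells of 1000 to 5000 UMIs held 61.1, 79.1 (62.7 to 98.6) and 84.2 CPM. Cluster 21, at a median of 1078 UMIs, overlapped this CAV2 interval, while cluster 8, at 1415.5 UMIs, lay above this bin for each gene.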

How the results depend on the processing

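No paired analysis was possible because each group is 1 library. All values here are log2 ratios of graft over native with 5 CPM added, unless counts of genes are named, and the cause of each shift was not tested. In endothelial cells all 3 genes were lower in the graft under each of 16 alternatives. CAV1 (-1.18) was at -1.29 with each cell's class taken from its own markers, -1.55 without cells carrying markers of other classes, -0.90 thinned to 1000 UMIs, -1.35 in cells of at least 5000 UMIs and -1.02 with equal weight per cell. CAV2 (-2.12) was at -1.97 from own markers and -2.29 thinned. CAVIN2 (-4.12) was at -3.25 from own markers, -3.77 without cells carrying other markers, -3.00 thinned, -3.11 with equal weight and -4.32 with 1 CPM added. Under alternatives chosen after seeing the data, CAV1 was at -1.31 without cells carrying other markers but with CLEC3B set aside, -1.44 in cells of 5000 to 20000 UMIs, -1.10 in deeper cells and -0.78 in the cluster shared by both libraries. CAV2 was at -1.61 in cells of 5000 to 20000 UMIs and -1.52 in the shared cluster. CAVIN2 was at -2.25, -4.34 and -0.81 in these 2 depth bins and the shared cluster. CLEC3B, a listed fibroblast marker, stood at 3059 CPM in graft and 2212 CPM in native endothelial cells.

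In smooth muscle cells CAV1 (-0.51) reversed to 0.30 without cells carrying other markers, 0.62 with CLEC3B set aside and 0.090 thinned, and was at -0.19 from own markers and -1.49 in cells of 5000 to 20000 UMIs. CAV2 (-1.47) was at -1.08, -0.55, -0.41 and -2.18 from own markers, without other markers, with CLEC3B aside and in that depth bin. CAVIN2 (-2.71) was at -1.38, -1.18, -0.996 and -1.91 in the same order, -1.14 thinned and -3.63 with 1 CPM added. In fibroblasts, thinning gave -4.48 for CAV1 (-1.60) and -4.93 for CAV2 (-2.25), with 0 graft UMIs left. CAVIN2 (-1.09) reversed to 0.16 without other markers with or without CLEC3B, 0.29 in cells of at least 5000 UMIs, 0.70 at 5000 to 20000 UMIs and 0.48 in the shared cluster, and was at -2.81 from own markers and -2.77 with equal weight.

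With 1 CPM added, 1704 genes were called higher and 1795 lower in graft endothelial cells, against 1079 and 918. In smooth muscle cells 2406 were higher and 1966 lower, against 1190 and 1179, and trimmed-mean scaling left 724 lower. In fibroblasts 1134 were higher and 3319 lower, against 727 and 1413. Keeping the 3 genes among the variable genes changed nothing, since none was variable. Precision is limited by the 28 graft fibroblasts, the 796541 UMIs of native smooth muscle cells and the native barcodes under 1000 UMIs.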
